A study of Mus musculus with 22 samples.

Results

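The genes described here are 9 feedback inhibitors of the RAS-ERK (MAPK) pathway: the Sprouty genes Spry1, Spry2 and Spry4, the Sprouty-related genes Spred1, Spred2 and Spred3, the dual-specificity phosphatases Dusp4 and Dusp6, and Il17rd, also known as Sef. They were chosen by name. All 9 had a row in both count tables, of 20668 genes measured in nuclei and 16304 in whole cells, and each was followed in every cell type and cluster after FGF1 or vehicle.

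Fibroblast growth factors bind receptor tyrosine kinases, and the receptors pass the signal through adaptor proteins to RAS, RAF, MEK and ERK. ERK in turn raises transcription of proteins that dampen the same route, so that transcripts of these inhibitors are widely used as a readout of recent ERK activity. Sprouty proteins act between the receptor and RAF, SPRED proteins bring neurofibromin to RAS at the membrane, DUSP6 and DUSP4 remove phosphate from ERK in the cytoplasm and the nucleus, and IL17RD is a membrane protein that restrains FGF signalling.

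All mice were leptin-deficient ob/ob males of 11 weeks, and each library came from the hypothalamus of 1 mouse. A dose of 3 µg of recombinant human FGF1 was injected once into the cerebral ventricle (icv); controls, here called vehicle mice, were given phosphate-buffered saline instead, with food restricted to the intake of treated animals (pair-fed, PF). Nuclei were profiled 24 h later (Day 1) in 3 mice of each group and on Day 5 in 2 of each, and whole cells were profiled on Day 5 in 6 of each, 22 mice in all. The groups hold no lean and no freely fed mice. Each mouse gave 1 library, so p-values measure the spread between mice.

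The tables held 24965 nuclei and 54890 whole cells, with 2721087 to 16345981 unique molecular identifiers (UMIs) per nuclei library and 2652897 to 11866269 per whole-cell library. On Day 1 the FGF1 libraries were shallower per nucleus, with medians of 2029 to 2816 UMIs against 3178.5 to 3776 in vehicle. Of the barcode sequences, 318 occurred in 2 or more nuclei libraries and 1791 in 2 or more whole-cell libraries. The members were sparse: Spred1 gave 5817 UMIs over all nuclei and Spred2 5647, but Spry2 1730, Spred3 1536, Dusp6 536, Il17rd 515, Spry4 243, Spry1 142 and Dusp4 37. In whole cells Spred1 gave 11598 UMIs, Spry2 5703, Dusp6 3150, Spred2 2069, Spry1 1341, Spred3 727, Spry4 674, Il17rd 522 and Dusp4 only 2, so Dusp4 could not be followed there.

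The members are protein-coding genes. Their positions in GRCm38, without that of Spry4, are Spry1 at chr3:37639947-37644598, Spry2 at chr14:105891947-105896819, Spred1 at chr2:117121374-117182279, Spred2 at chr11:19924375-20024026, Spred3 at chr7:29158829-29170411, Dusp4 at chr8:34807297-34819894, Dusp6 at chr10:99263231-99267489 and Il17rd at chr14:27038941-27107286. Spred3 overlaps Ggn, a protein-coding gene on the other strand, Spry1 overlaps Gm42922 and Spry4 overlaps Gm27369 and Gm27804, likewise on the other strand. Whether reads were counted by strand is not given in the sources used here, so UMIs of these overlapping stretches could belong to either gene.

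The 250 bases before the RefSeq start (GRCm38.p6) were searched for 7 members; those of Dusp4 and Spry4 were not analysed here. Promoters of 4 members are shown because these are the genes that the FGF1 comparisons turn on, with matches to an ETS core (CGGAA) and to a CRE half-site (TGACG), each searched on both strands, in capitals. The windows are Spry2 (chr14:105896820-105897069, minus strand), Spred2 (chr11:19924192-19924441, plus strand), Spred1 (chr2:117120821-117121070, plus strand) and Dusp6 (chr10:99262981-99263230, plus strand), and for Spred1 and Spred2 the RefSeq start is not the gene start given above.
Spry2: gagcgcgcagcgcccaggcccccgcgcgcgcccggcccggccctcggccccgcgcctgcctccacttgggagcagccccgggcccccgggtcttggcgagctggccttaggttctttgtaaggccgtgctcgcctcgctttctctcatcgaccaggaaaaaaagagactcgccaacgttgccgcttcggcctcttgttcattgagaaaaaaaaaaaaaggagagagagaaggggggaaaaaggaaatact
Spred2: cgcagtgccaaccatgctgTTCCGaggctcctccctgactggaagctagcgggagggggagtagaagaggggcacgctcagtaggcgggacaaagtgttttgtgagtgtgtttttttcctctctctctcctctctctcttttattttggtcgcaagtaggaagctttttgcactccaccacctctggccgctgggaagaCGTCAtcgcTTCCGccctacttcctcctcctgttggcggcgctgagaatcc
Spred1: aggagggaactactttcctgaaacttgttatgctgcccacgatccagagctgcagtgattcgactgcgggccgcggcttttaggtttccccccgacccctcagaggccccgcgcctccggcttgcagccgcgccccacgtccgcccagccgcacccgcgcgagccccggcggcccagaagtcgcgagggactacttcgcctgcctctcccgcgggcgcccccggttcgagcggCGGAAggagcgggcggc
Dusp6: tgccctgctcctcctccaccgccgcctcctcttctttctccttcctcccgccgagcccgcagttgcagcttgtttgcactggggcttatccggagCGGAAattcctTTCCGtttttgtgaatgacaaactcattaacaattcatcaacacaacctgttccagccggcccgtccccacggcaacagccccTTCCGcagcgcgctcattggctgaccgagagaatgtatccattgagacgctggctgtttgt
Dusp6 held 3 ETS cores, with their first bases 155, 144 and 61 bases before the start, and Spred2 held 2, at 231 and 42, beside a CRE half-site at 51. Spred1 held 1 ETS core 17 bases before the start and Il17rd held 2, at 80 and 60. The windows of Spry1, Spry2 and Spred3 held no match to either motif, and none of the 7 windows held the AP-1 motif TGANTCA. Such short motifs are common: 25.2% of 32851 promoters of this length held an ETS core, 17.8% a CRE half-site and 6.75% an AP-1 motif. The SP1 box GGGGCGG, also searched, was found in 21% of them and in Spry1 (61), Spred3 (136 and 103) and Il17rd (128). None of the matches in the printed windows share a base. These motifs were chosen after longer ones had given no match.

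In whole cells of vehicle mice, which held no neuron class, mean Dusp6 was highest in microglia, Il17rd in endothelial cells, and Spry1 and the 3 Spred genes in OPC, the oligodendrocyte precursor cells. The order in nuclei was another one and is given after it. Levels are UMIs of the gene per 1000000 UMIs of a mouse's cells of that type (CPM), scaled within the type by TMM (trimmed mean of M values), and are compared only between types for 1 gene at a time. Whole cells were grouped into classes named from marker genes, of which 11 had enough cells to compare. All values are mean ± SD over the mice with at least 10 cells of the class. The microglia cluster was led by immune genes, with Il1a, Tnf and Ccl4 as its top genes beside Cx3cr1 and Tmem119. Per the paper, whole cells were freed from fresh tissue with warmed enzymes, while nuclei came from frozen tissue. The paper also gives another supplier for the whole-cell mice, Janvier, against Jackson for the nuclei mice. Their tissue was cut further, to a triangle of the mediobasal hypothalamus. The part of these differences in the levels of whole cells and nuclei was not tested.

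Dusp6 was highest in microglia, at 213 ± 42.0 CPM (n = 6), and the lowest microglial value of 169.6 lay above the highest value of endothelial cells, the next class, at 148. In oligodendrocytes Dusp6 was at 7.41 ± 2.78. Spred3 was highest in OPC, at 35.8 ± 8.39 with a range of 25.3 to 45.9, and astrocytes came next at 11.9 ± 3.17. These were the only 2 of 90 steps between neighbouring classes, over the 9 members, at which the ranges over mice did not overlap, and 3 when CPM was taken from library totals.

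OPC also led for Spry1, at 118 ± 8.28 CPM, where VLMC, the vascular and leptomeningeal cells, followed at 109 ± 133 with a range of 0 to 299.9, while astrocytes were at 1.64 ± 1.14 and ependymal cells at 1.24 ± 0.994. Spry2 was at 133 ± 54.0 in astrocytes and 129 ± 32.9 in OPC, and tanycytes, the glia that line the third ventricle, had 50.6 ± 13.5. Spry4 was at 68.4 ± 68.1 in pericytes and 60.6 ± 20.6 in OPC but at 0.683 ± 0.614 in tanycytes. Among the Spred genes, Spred1 was at 274 ± 31.4 in OPC and 192 ± 27.3 in astrocytes and was found in every class, the lowest being pericytes at 91.6 ± 37.8. Spred2 was at 60.6 ± 4.84 in OPC and 11.9 ± 2.48 in oligodendrocytes. Il17rd was highest in endothelial cells, at 20.9 ± 3.75, followed by ependymal cells at 15.7 ± 3.33 with overlapping ranges.

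In vehicle nuclei, where neurons are present and the mice and UMIs are fewer, mean Spred1 was highest in astrocytes, at 134 ± 40.9 CPM on Day 1 (n = 3), with OPC/COP, the precursors and committed precursors together, at 66.1 ± 13.9. On Day 5 (n = 2) the astrocyte values of 104.8 and 126 lay above those of every other type with enough nuclei, and OPC/COP was at 58.1. Tanycytes and ependymal cells were left out for too few vehicle nuclei. In CPM of the type's total, Spred1 there was at 120 and 107 in vehicle replicate 38, on 8 and 4 UMIs. In vehicle replicate 28 it was at 60.8 and 65.7, on 2 and 1 UMIs. Neuron types had the highest means for Spred2, 93.2 in n02.Gm8773/Tac1 on Day 1 and 88.8 in n16.Rgs16/Vip on Day 5, and for Spred3, 41.0 ± 32.2 in Agrp neurons on Day 1 and 17.2 in n06.Oxt on Day 5. Spry2 on Day 1 was at 64.2 ± 15.4 in astrocytes and 40.5 ± 22.3 in tanycytes. Dusp6 on Day 1 was at 13.2 ± 12.0 in astrocytes, on 11 UMIs, and at 6.93 ± 2.41 in microglia, on 3. Among types with enough nuclei, the type with the highest mean overlapped the next one for each of these genes, apart from Spred1 on Day 5.

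**Figure D1:**
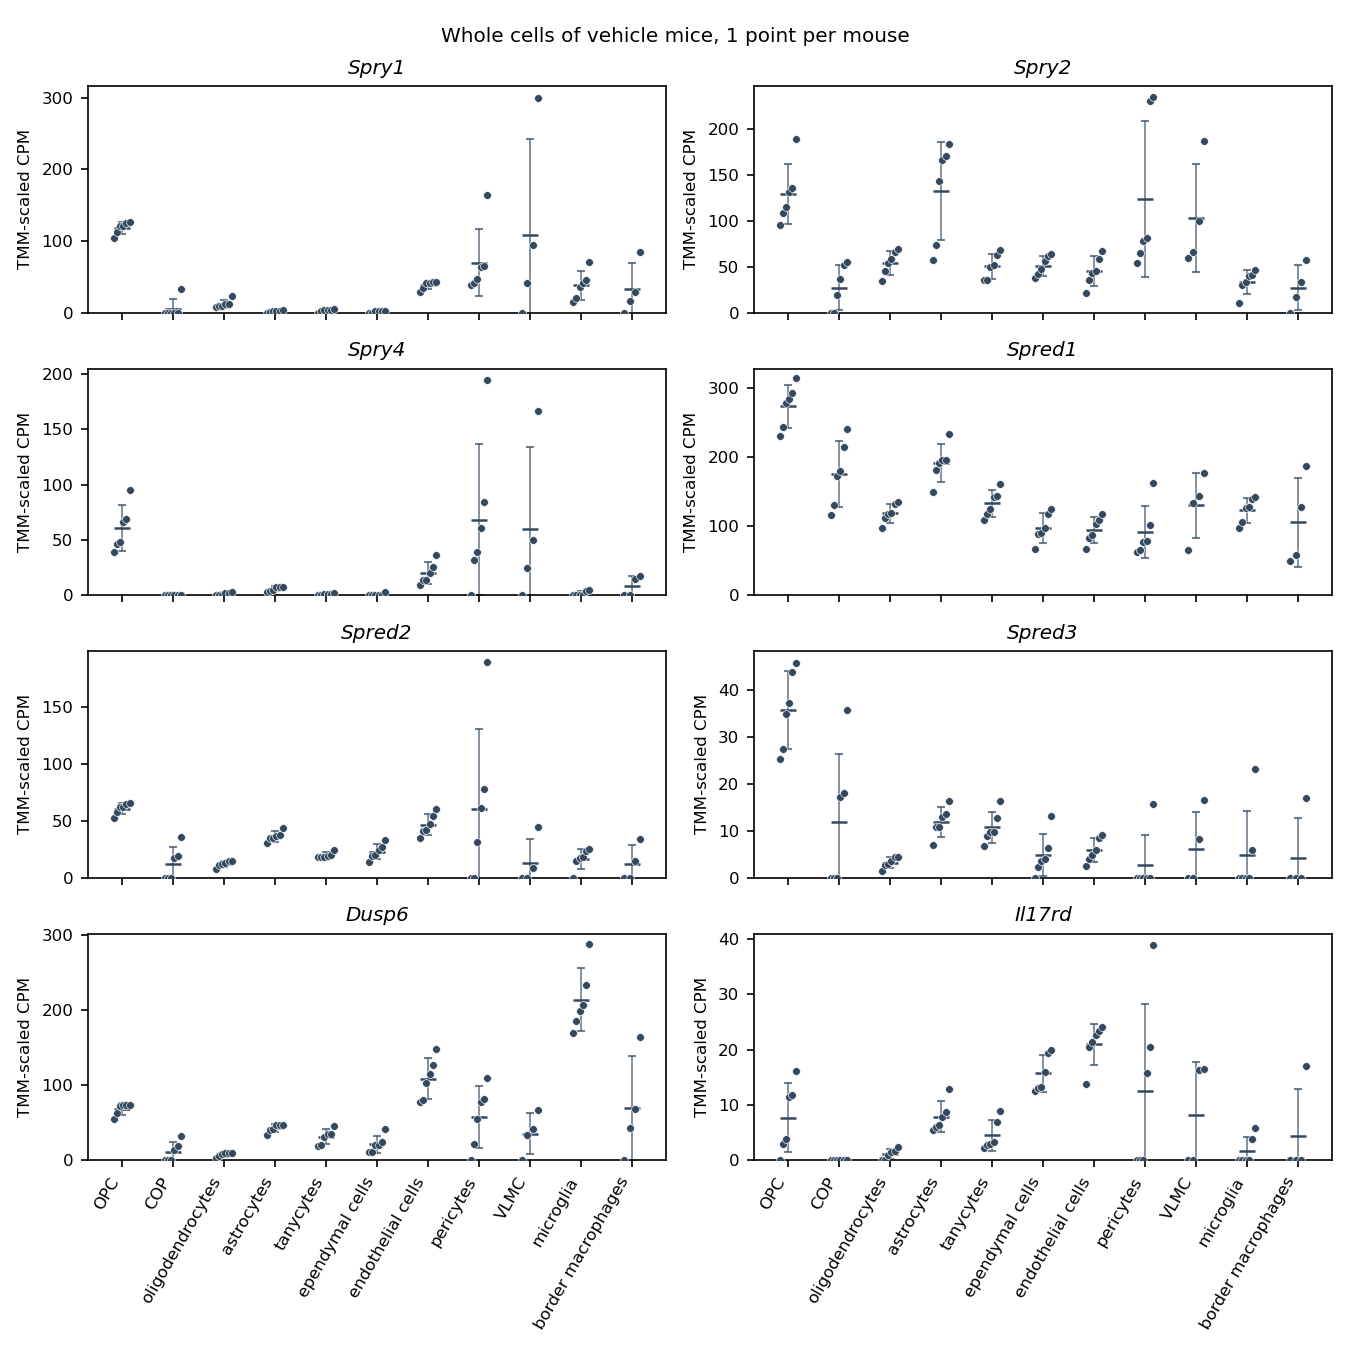
Level of 8 members in whole cells of vehicle mice on Day 5, by cell class (x axis) in TMM-scaled CPM (y axis, a separate linear scale per gene). Each point is 1 mouse with at least 10 cells of the class, the horizontal line is the mean and the bar the SD. Microglia, with 170 to 287 CPM, stand above the class of next highest mean for Dusp6. OPC, with 25.3 to 45.9 CPM, do so for Spred3.

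Over the 16 whole-cell clusters of at least 100 cells, the genes whose vehicle levels followed a member's most closely were listed from 11193 genes with at least 20 CPM in some cluster. For Spred3 these were Ostc (Pearson r of log2(CPM + 1) = 0.959) and Smarca1 (0.915), for Il17rd Rnf152 (0.923) and Plcb4 (0.909), for Spred1 Gm2a (0.922) and Gpt2 (0.897), and for Dusp6 Tnfrsf1a (0.918) and Tspan4 (0.918). For Spry1 they were Ostf1 (0.887) and Stard9 (0.863), for Spry2 Gabrg1 (0.863) and Tlcd1 (0.841), for Spry4 Pth1r (0.887) and Rbms3 (0.866), and for Spred2 Lgalsl (0.887) and Eci2 (0.884). Among the members themselves, Spred1 and Spred3 had r = 0.773 and Spry1 and Spry4 had r = 0.735, while Spry1 and Spred1 had r = -0.0661. The clusters share libraries and some share a cell class, so these values are descriptions.

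Whether FGF1 moved these genes was asked first on Day 1, for each mouse over all annotated nuclei, in CPM of the whole library. Spry2 was at 37.0, 48.6 and 50.9 CPM in the FGF1 mice and at 9.25, 9.75 and 13.2 in the vehicle mice. The lowest FGF1 value was therefore well above the highest vehicle value, and the ratio of the means was 4.23. Dusp6 was at 8.68, 11.1 and 20.7 after FGF1 and at 2.35, 3.25 and 3.31 in vehicle, again without overlap, with a ratio of 4.54. Spry4 had 5.80, 6.16 and 10.7 against 0.500, 1.10 and 1.73, a ratio of 6.79.

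Spry1, rarer than these, was at 3.16, 3.18 and 3.90 CPM after FGF1 and at 0.75, 0.989 and 1.47 in vehicle. Spred3 was at 33.2, 35.3 and 36.4 against 13.1, 13.98 and 16.0, a ratio of 2.44 with little spread within either group. Spred1 had 96.0, 119.7 and 122 against 44.3, 66.3 and 68.5, a ratio of 1.89. Spred2 was the Spred gene whose groups overlapped, with a lowest FGF1 value of 70.9 and a highest vehicle value of 73.3. Il17rd did not follow the others: it was at 6.53 ± 2.87 after FGF1 and 7.06 ± 1.41 in vehicle (n = 3 each).

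Dusp4 was also higher in each FGF1 mouse, but on 16 UMIs against 4. In all, 7 of the 9 members lay above vehicle without overlap, where 5.91% of 18978 genes with at least 10 UMIs did so. These sums were not tested, and in whole libraries more nuclei of a type cannot be told apart from more RNA per nucleus. On Day 5 the same sums in nuclei gave ratios of 0.586 for Spry1, 0.882 for Spry2 and Spry4, 1.08 for Spred1, 1.09 for Spred2, 0.972 for Spred3, 0.995 for Dusp6 and 0.753 for Il17rd, and 2.42 for Dusp4, with overlapping groups. Of these only Spred2, at 62.4 and 67.7 against 57.9 and 61.4, had groups that did not overlap, and 14.4% of all genes lay above in the same way. In whole cells on Day 5 the ratios ran from 0.656 for Spry2 to 0.927 for Spred1, and no member's groups were apart, where 2.27% of all genes lay below without overlap.

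**Figure D2:**
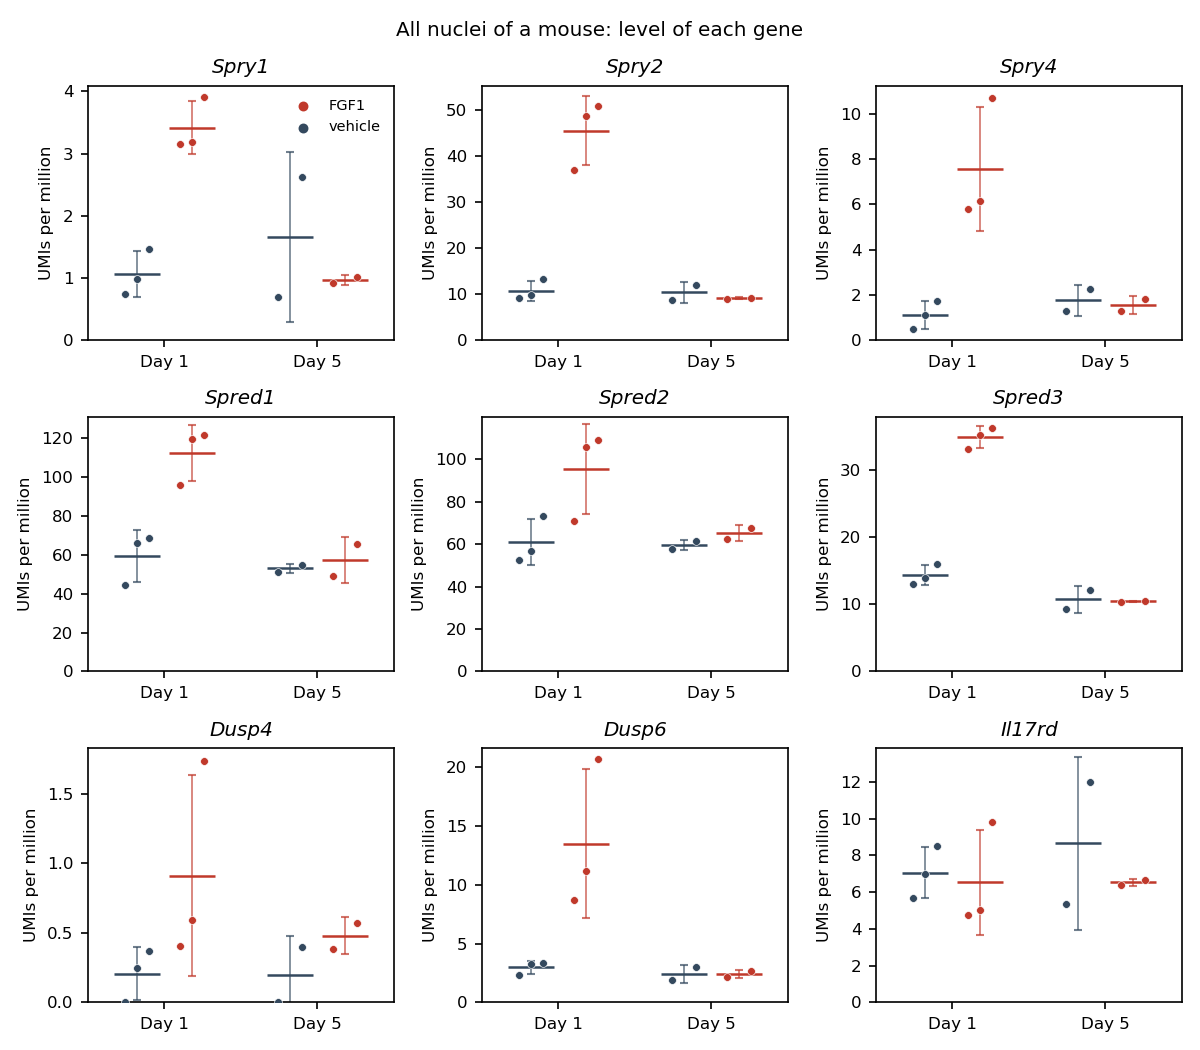
Level of each of the 9 members over all annotated nuclei of a mouse, in CPM of the whole library (y axis, a separate linear scale per gene), on Day 1 (3 FGF1 and 3 vehicle mice) and Day 5 (2 and 2). Points are mice, lines are means and bars are SD; on Day 1 Spry2 spans 37.0 to 50.9 with FGF1 and 9.25 to 13.2 with vehicle, and on Day 5 8.80 to 12.0 over both groups.

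Within cell types on Day 1, 18 types had enough nuclei, and over the 9 members and 18 types the FGF1 mean was higher in 126 pairs of gene and type and lower in 17. The share over all genes was not taken for this count, and many of these pairs rest on few UMIs. The FGF1 libraries held 8620 nuclei and the vehicle libraries 4586, so the count is given as a description. Mean Spred3 and Dusp6 were higher in 18 of 18 types, Spry2, Spry4, Spred1 and Spred2 in 16, Spry1 in 10, Dusp4 in 8 and Il17rd in 8. Of these pairs 33 passed the low-count filter, which a gene can pass by being high in 1 group only. They belonged to 7 genes in 12 types, since Spry1 and Dusp4 were too sparse in every type. In edgeR's quasi-likelihood test with Benjamini-Hochberg adjustment over all genes of a type, 3 of the 33 were called at a false discovery rate (FDR) of 0.05, all higher with FGF1, where 1.05% of 72292 pairs were called in either direction and 0.653% as higher. Before adjustment 19 of the 33 had p below 0.05, where 8.12% of all pairs did, and 19 had FGF1 above vehicle without overlap, where 7.83% of all pairs did. The median log2 difference was 1.03 over the 33 pairs and 0.01 over all pairs. These counts are not support on their own, because 16 of the 33 pairs passed the filter by their FGF1 mice while too few vehicle mice reached its limit, so that their direction was partly fixed. They include Spry2 and Spred2 in tanycytes, Spry2 in oligodendrocytes and OPC/COP, Spred3 in n29.Nr5a1/Adcyap1 neurons, and Spry4 and Dusp6 in unmapped neurons. In 14 pairs the vehicle mice alone were enough, and of these 9 had p below 0.05, 8 lay above vehicle without overlap and 1, Spry2 in astrocytes, was called.

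Spry2 gave 2 of the 3 calls. In tanycytes it was at 159.9, 176 and 202 CPM in the FGF1 mice and at 27.4, 27.9 and 66.3 in the vehicle mice, on 103 and 13 UMIs. Each FGF1 mouse was above each vehicle mouse, and so also above the vehicle mouse of its own batch in 3 of 3 batches. The log2 difference was 2.25 ± 0.446 (SE; edgeR, FDR = 0.00744), where 9.14% of the 3534 genes tested in tanycytes were called. The pair entered this test by its FGF1 mice, since 1 of 3 vehicle mice reached the filter's limit, and with no filter the FDR was 0.00156. The difference was 1.99 with FDR = 0.103 without vehicle replicate 1 and 2.01 with FDR = 0.0516 without vehicle replicate 2. After thinning every nucleus to 1300 UMIs, neither Spry2 nor Spred2 passed the filter in tanycytes, so neither was tested at matched depth.

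In astrocytes Spry2 was at 230.0, 316 and 331 CPM after FGF1 and at 51.3, 59.9 and 81.2 in vehicle, on 480 and 62 UMIs. The groups were far apart here too, with a log2 difference of 2.17 ± 0.453 (edgeR, FDR = 0.0386), where 1.55% of 6063 genes were called. The call was lost, with FDR between 0.104 and 0.304, with batch as a block, after the same thinning, and without FGF1 replicate 2 or 3 or vehicle replicate 1, 2 or 3. The log2 difference in these ranged from 1.77, after thinning, to 2.38, without vehicle replicate 1.

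Spred2 was the third call, in tanycytes, at 176, 177 and 209 CPM after FGF1 and 34.9, 39.8 and 75.3 in vehicle. No FGF1 mouse overlapped a vehicle mouse, and the log2 difference was 1.85 ± 0.416 (edgeR, FDR = 0.0155). It too entered by its FGF1 mice, with 19 vehicle UMIs, and had FDR = 0.00945 with no filter. Without vehicle replicate 1, 2 or 3 the FDR was 0.0564, 0.0761 and 0.0559, and with batch as a block 0.0544. Spred1 in the same nuclei was at 113, 210.4 and 253 against 61.6, 69.8 and 119, so that 1 vehicle mouse lay above 1 FGF1 mouse, with a log2 difference of 1.30 ± 0.438 (edgeR, FDR = 0.0847). Dusp6 in tanycytes did not pass the filter and was at 12.6, 69.6 and 70.1 against 6.85, 6.98 and 13.3. It was called only in the fit with no filter (log2 difference 2.73, edgeR, FDR = 0.0259).

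In nuclei labelled as other macroglia Spry2 had differences of like size that did not pass the FDR threshold. The neuronal markers found in these labels are given below. With no filter Spry2 was called in oligodendrocytes (FDR = 0.00576), OPC/COP (FDR = 0.0164) and ependymal cells (FDR = 0.0400), and in oligodendrocytes also without FGF1 replicate 1 (FDR = 0.0342). In oligodendrocytes it was at 48.8, 53.5 and 60.6 CPM after FGF1 and 3.98, 10.9 and 15.1 in vehicle, a log2 difference of 2.21 ± 0.441 (edgeR, FDR = 0.0756). In nuclei labelled OPC/COP it was at 64.0, 68.4 and 79.8 against 4.56, 9.20 and 23.4, or 2.49 ± 0.578 (FDR = 0.206). In both types the groups were apart, on 15 and 8 vehicle UMIs. Ependymal cells had 19 Spry2 UMIs after FGF1, at 73.3, 73.4 and 142 CPM, and 2 in vehicle, and did not pass the filter.

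Spred1 was tested in 12 types and its log2 difference ran from 0.224 in Agrp neurons to 1.96 in VLMC. In astrocytes it was at 286, 344 and 366 CPM after FGF1 and 103, 119.7 and 181 in vehicle, without overlap (1.30 ± 0.467, edgeR, FDR = 0.307). None of its 12 tests passed the threshold, and 7 had an unadjusted p below 0.05. It was called in tanycytes without nuclei above 5% mitochondrial or ribosomal UMIs (1.67, edgeR, FDR = 0.0264) or without FGF1 replicate 3 (FDR = 0.0497), in ependymal cells without FGF1 replicate 2 (FDR = 0.0105) or vehicle replicate 3 (FDR = 0.0408), and in n29.Nr5a1/Adcyap1 neurons without FGF1 replicate 1 (FDR = 0.0131) or with no filter (FDR = 0.00479). In astrocytes Dusp6 was at 5.91, 33.2 and 98.5 against 5.70, 6.85 and 27.1, a wide spread after FGF1 that overlapped vehicle.

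In neurons most differences had the same sign. In the neuron type n29.Nr5a1/Adcyap1, named for genes known from the ventromedial hypothalamus, Spred3 was at 30.2, 39.4 and 46.7 CPM after FGF1 and 2.98, 3.55 and 11.6 in vehicle. The groups did not overlap, and the log2 difference was 2.46 ± 0.496 (edgeR, FDR = 0.0685). Spred2 and Spred1 in these neurons had log2 differences of 1.47 ± 0.301 (FDR = 0.0765) and 1.37 ± 0.325 (FDR = 0.122), also without overlap. DESeq2 called Spred3 (FDR = 0.0469) and Spred2 (FDR = 0.0427) in these neurons. By edgeR both were called with no filter (FDR = 0.000699 and 0.000967) and without FGF1 replicate 1 (FDR = 0.00578 and 0.00149). Under the remaining settings neither was called.

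Among neurons that the authors' annotation mapped to no known type, the largest label with 4231 FGF1 and 2144 vehicle nuclei, 7 members were tested. Spry4 was at 4.69, 5.67 and 5.91 CPM against 0.563, 0.827 and 1.45, a log2 difference of 2.33 ± 0.479. Dusp6 was at 6.30, 7.29 and 10.47 against 1.45, 1.69 and 2.07, or 2.24 ± 0.424. Spry2 (1.91 ± 0.328), Spred3 (1.03 ± 0.252) and Spred1 (0.76 ± 0.277) were also apart from vehicle, while Spred2 (0.61 ± 0.238) overlapped and Il17rd had -0.06 ± 0.512. None passed the threshold there, with edgeR FDR of 0.214 to 0.985, and no gene of the 13681 tested in these neurons did. DESeq2 called Spry2 there (1.92, FDR = 0.00532), and no other member.

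**Figure D3:**
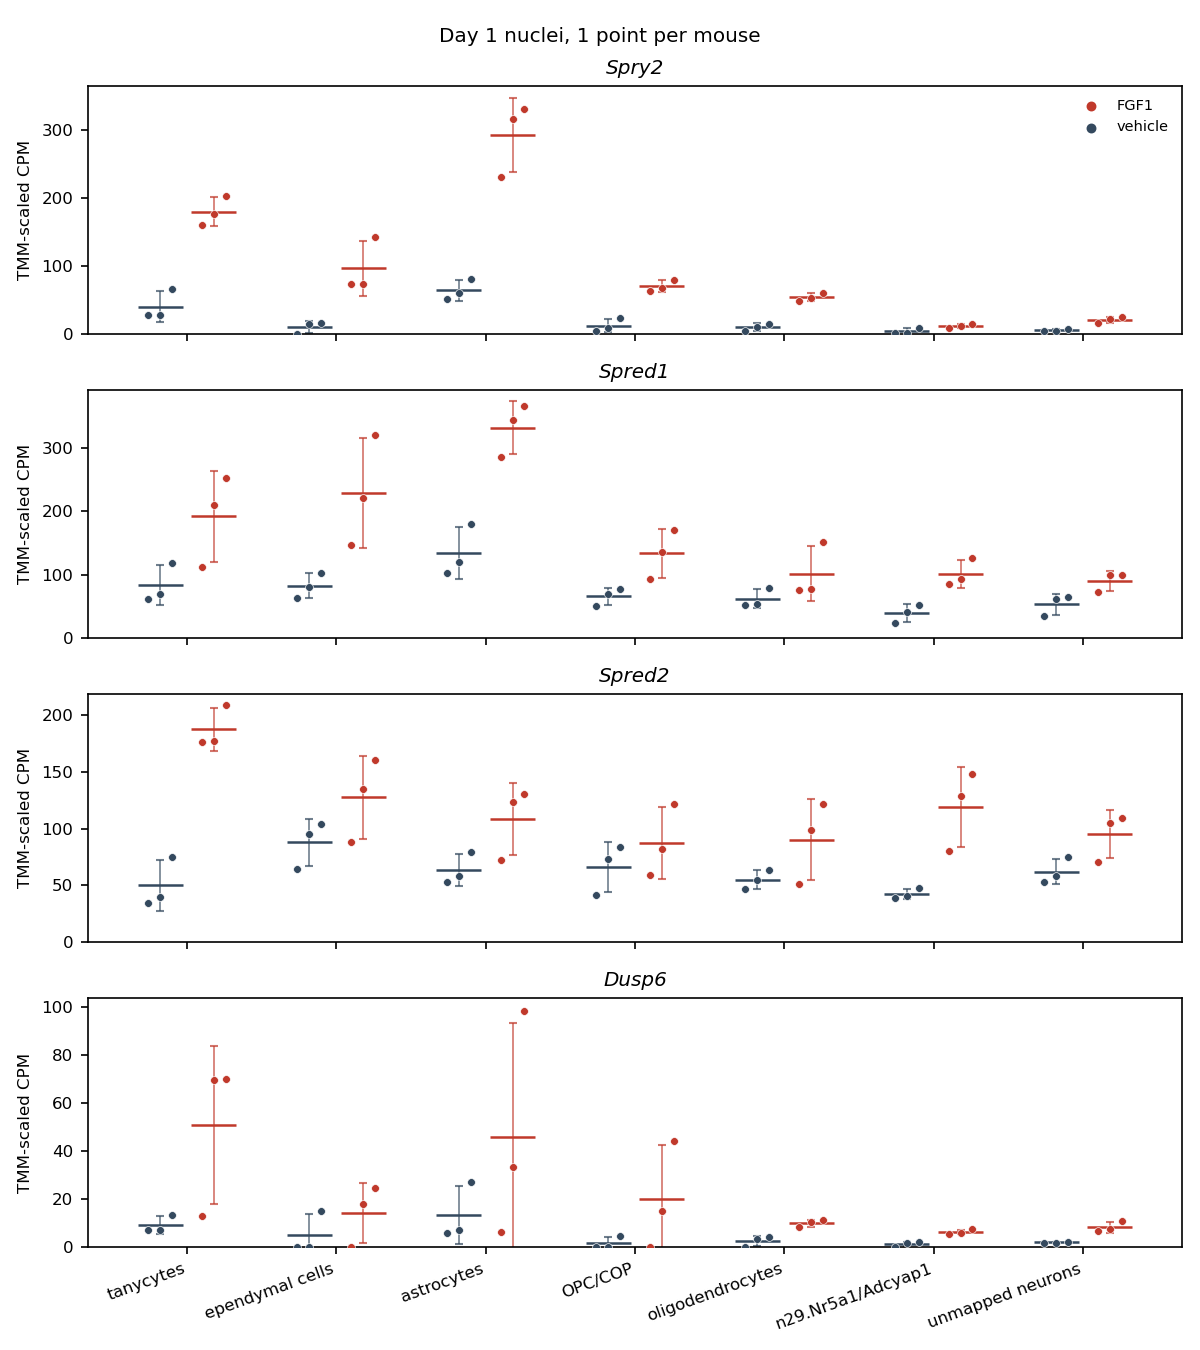
Spry2, Spred1, Spred2 and Dusp6 in 7 types of Day 1 nuclei (x axis) in TMM-scaled CPM (y axis, linear), with 3 FGF1 and 3 vehicle mice per type; points are mice, lines means and bars SD. Spry2 in tanycytes spans 159.9 to 202 CPM with FGF1 and 27.4 to 66.3 with vehicle, while Dusp6 in astrocytes spans 5.91 to 98.5 with FGF1.

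The nuclear labels were checked against 8 marker genes each (15 for OPC/COP): in the 7 glial and vascular labels every marker was at least 2 times as high as in the other nuclei and none was at 0. Sums of 7 neuronal marker genes were nevertheless 20940 CPM in nuclei labelled oligodendrocytes, 17117 in OPC/COP and 21325 in microglia, against 24639 in the unmapped neurons and 3997 to 6702 in astrocytes, tanycytes, ependymal cells and VLMC. On Day 1 the neuronal sum ran from 5672 to 8417 in FGF1 tanycytes and from 6835 to 8622 in vehicle, and from 2468 to 6770 and 5609 to 8524 in astrocytes. The labels' own markers were summed too. Those of tanycytes came to 707 to 1109 CPM after FGF1 and 1094 to 1704 in vehicle. Those of ependymal cells came to 1118 to 1848 after FGF1 and 2993 to 4272 in vehicle, and those of VLMC, where Spred1 had its largest difference, to 2656 to 4700 and 1027 to 1752, both without overlap. The part of these differences in the results above was not tested.

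Whether the effect differed between glial types on Day 1 was tested for tanycytes, ependymal cells and astrocytes as a difference of the log2 differences. Over 10 tests none was called by edgeR, where 0.419% of 11705 were, and 1 had an unadjusted p below 0.05, where 8.03% did. This was Spred2, with 1.2 ± 0.497 more in tanycytes than in astrocytes (FDR = 0.450). For Spry2 the difference between tanycytes and astrocytes was 0.147 ± 0.532 (FDR = 0.983).

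The rest of the pathway was followed through lists of other genes. Of 25 genes of the cascade itself, from adaptors to ERK and its kinases, 221 pairs of gene and type were tested on Day 1 and 1 was called: Gab1, an adaptor, was lower in ependymal cells, whose own markers were lower too, at 88.9, 109.9 and 117 CPM against 194, 287 and 296 (log2 difference -1.23 ± 0.390, edgeR, FDR = 0.0349). It is named as the only call of its list, after its values were seen. Of the other MAPK phosphatases, 5 of 9 were tested in 7 pairs and none was called, with 1 unadjusted p below 0.05. Of 10 other ERK target genes, 9 were tested in 27 pairs, of which 6 were called, all higher. Over all genes 1.05% of pairs were called and 0.653% as higher, and by type the share called was 19% among ependymal cells, 9.14% among tanycytes and 1.55% among astrocytes, which held 6 of these 7 calls. The median log2 difference was -0.01 in the cascade list, 0.32 in the phosphatases and 0.72 in the target genes.

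These 6 calls concerned Ccnd1, Egr1 and Etv5. Ccnd1, which encodes cyclin D1, was at 213, 279 and 293 CPM in ependymal cells after FGF1 and at 69.6, 107 and 126 in tanycytes, and in each of these types it had only 1 UMI over the vehicle mice. These pairs passed the low-count filter through the FGF1 mice alone, so these values are given as a description. Egr1, an immediate early transcription factor, was at 75.4, 137 and 184 CPM against 0, 13.3 and 20.5 in tanycytes (log2 difference 3.56 ± 0.668, FDR = 0.00555), and in astrocytes at 41.4, 126 and 159 against 0, 5.70 and 6.85 (4.46 ± 0.742, FDR = 0.0135). Etv5, an ETS-family transcription factor, was at 51.1, 60.9 and 66.5 against 5.81, 11.9 and 12.4 in n29.Nr5a1/Adcyap1 neurons, or 2.61 ± 0.403 (FDR = 0.0243). The sixth call, named after its values were seen, was Ccnd1 in astrocytes. Egr1, with 4 vehicle UMIs in tanycytes and 5 in astrocytes, Etv5, with 15, and Ccnd1 in astrocytes, with 6, also passed the filter through the FGF1 mice alone, and Gab1 in ependymal cells through the vehicle mice alone, so that the direction of all 7 calls was fixed by the filter.

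On Day 5 no member was called in nuclei. Of 11 types with enough nuclei, 9 gave 22 tested pairs of 5 members (Spry2, Spred1, Spred2, Spred3 and Il17rd), and none was called by edgeR or by DESeq2, where 0.288% of 71541 pairs were called. None had an unadjusted p below 0.05, where 8.6% of all pairs did. The log2 differences ran from -0.58 for Spred2 in OPC/COP to 0.76 for Spred1 in n16.Rgs16/Vip neurons. Spry2 in astrocytes was at 56.1 and 69.1 CPM in the FGF1 mice and 33.2 and 61.7 in the vehicle mice, overlapping (0.20 ± 0.398, FDR = 0.866). Spred3 in the unmapped neurons was at 11.6 and 11.9 against 12.3 and 13.8.

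With 2 mice per group the intervals are wide, and tanycytes and ependymal cells could not be tested because the vehicle mice had 9 and 14 and 3 and 8 nuclei of these labels. In tanycytes Spry2 had 5 and 7 UMIs in the FGF1 mice, or 34.3 and 21.0 CPM of the type's total, and 3 and 3 in vehicle, or 91.2 and 45.1. Spred2 there was at 61.7 and 47.9 after FGF1 and 60.8 and 75.1 in vehicle.

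The change from Day 1 to Day 5 was tested in nuclei as the difference of the FGF1 effects, Day 5 minus Day 1. Of 31 pairs, 28 were below 0, with a median of -0.86, where 50.5% of all pairs were below 0, but none was called by edgeR or DESeq2, where 0.00784% of 76499 were, and 10 had an unadjusted p below 0.05, where 4.49% did. A pair could pass the filter by its Day 1 FGF1 mice alone, which partly fixes the sign, so these counts are not support on their own. How many pairs passed in this way was not counted. Spry2 gave -1.87 ± 0.604 in astrocytes (FDR = 0.442), -1.76 ± 0.60 in unmapped neurons (FDR = 1.00) and -3.59 ± 0.924 in oligodendrocytes (FDR = 0.838). The farthest from 0 was Spry2 in OPC/COP, at -4.45 ± 1.16 (FDR = 0.197). It rested on a Day 5 vehicle mouse at 104.6 CPM on 9 UMIs beside another at 10.6 on 2, and was -2.33 (FDR = 0.980) without the first, replicate 38, and -5.55 (FDR = 0.0192) without the second, replicate 28. Days 1 and 5 were different mice in different batches, so day and batch cannot be told apart in this test.

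**Figure D4:**
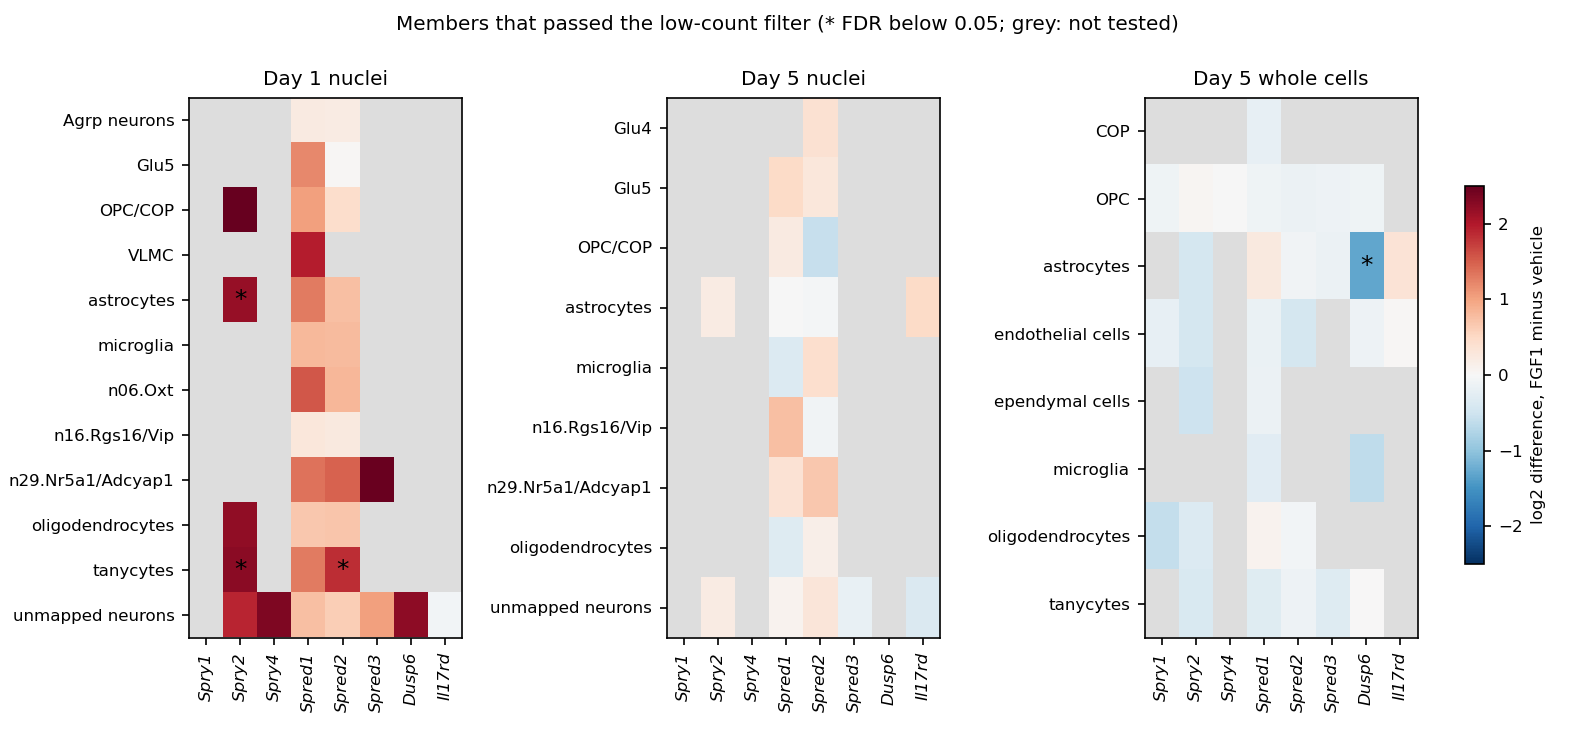
Log2 difference (FGF1 minus vehicle, colour scale from -2.5 in blue to 2.5 in red) of the members that passed the low-count filter, by cell type (rows) and gene (columns), for Day 1 nuclei, Day 5 nuclei and Day 5 whole cells. Grey marks pairs not tested and an asterisk an FDR below 0.05. In the Day 1 panel 32 of the 33 tested pairs are above 0, with 3 asterisks. The Day 5 nuclei have no asterisk, and in whole cells Dusp6 in astrocytes has the 1 asterisk, in blue.

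In whole cells on Day 5, 33 pairs of 8 members in 8 of 11 classes were tested. The log2 difference was below 0 in 27 of them, where 50.7% of all pairs were, with a median of -0.14 and a range of -1.30 to 0.34. A single pair was called by edgeR, lower after FGF1, where 4.18% of 56173 pairs were called and 2.11% as lower, and 7 had an unadjusted p below 0.05, where 17.7% did. The share of calls among the members was thus no larger than among all genes. In DESeq2 1 pair was called as well.

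The called pair was Dusp6 in astrocytes. It ranged from 9.73 to 22.8 CPM with a median of 17.6 in the 6 FGF1 mice and from 34.0 to 47.1 with a median of 44.0 in the 6 vehicle mice. The groups did not overlap, where 0.931% of all pairs lay below in this way, so that Dusp6 was also lower than in the vehicle mouse of the batch in 6 of 6 batches. The log2 difference was -1.30 ± 0.169 (edgeR, FDR = 6.59e-06), a 2.47-fold lower level, and it was between -1.37 and -1.21 when 1 mouse at a time was left out. Among all 9830 genes tested in astrocytes 12.6% were called. In astrocyte nuclei on Day 5 Dusp6 was too sparse to be tested. It was at 9.53 and 3.06 CPM there after FGF1, on 4 and 3 UMIs, and at 7.71 and 0 in vehicle, on 5 and 0.

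The astrocyte class was made of 2 clusters whose shares differed between the groups. Cluster 1, led by Slc7a10, Atp13a4 and Itih3, held a median of 93.4% of the class in vehicle mice and 20.6% in FGF1 mice, and cluster 4, led by Gfap, Serpina3n and Aqp4, held 6.60% and 79.4%. Mean Dusp6 was lower in cluster 4 than in cluster 1 in both groups, as CPM of library totals: 29.8 ± 9.37 in cluster 1 and 13.2 ± 2.69 in cluster 4 after FGF1, and 43.4 ± 6.11 and 26.4 ± 13.5 in vehicle (n = 6). Within cluster 1 the log2 difference was -0.54 ± 0.227 (edgeR, FDR = 0.368) with overlapping groups, and cluster 4 had 17 vehicle UMIs and did not pass the filter. With both clusters weighted equally in every mouse, Dusp6 was at 21.5 ± 5.46 against 34.9 ± 7.95, a log2 ratio of -0.70 (exact permutation test, two-sided p = 0.0152), in an alternative chosen after the data were seen. The permutation test was run for all 9 members without adjustment, and its next smallest p was 0.286, for Spry4. The cluster 4 values rest on 1 to 4 Dusp6 UMIs per vehicle mouse, and those of cluster 1 on as few as 1 UMI in an FGF1 mouse. The class difference and the shares of the clusters moved together, and the part of the shares in it was not tested beyond these values.

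**Figure D5:**
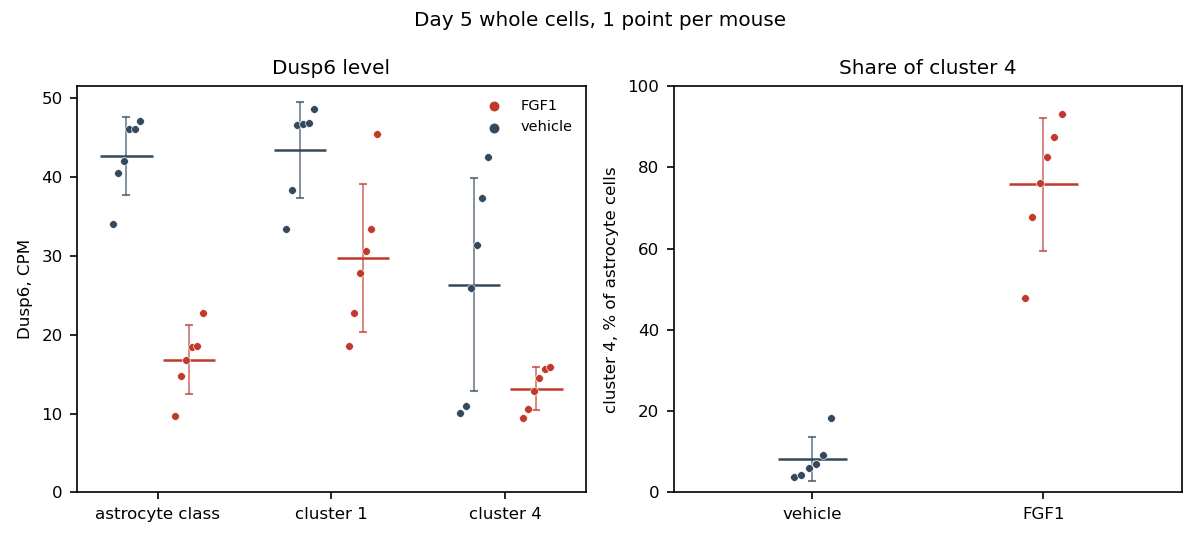
Left, Dusp6 in astrocytes of Day 5 whole cells, in TMM-scaled CPM for the class and CPM of library totals for clusters 1 and 4 (y axis, linear); right, the share of cluster 4 among astrocyte cells in percent. Each point is 1 of 6 FGF1 or 6 vehicle mice, lines are means and bars SD; the class spans 9.73 to 22.8 with FGF1 and 34.0 to 47.1 with vehicle, and the share of cluster 4 is at least 47.9 with FGF1 and at most 18.4 with vehicle.

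Spred1 in astrocytes went the other way at the class level, from 185 to 261 CPM with a median of 218 after FGF1 and from 149.5 to 234 with a median of 194 in vehicle. The ranges overlapped (log2 difference 0.24 ± 0.115, edgeR, FDR = 0.183). In cluster 1 Spred1 was at 160.2 ± 14.2 against 183 ± 24.8 and in cluster 4 at 251 ± 36.0 against 228 ± 37.8, and with equal weights the means were 206 ± 18.1 and 206 ± 23.1. Spry2 in astrocytes was at 98.6 ± 27.8 against 133 ± 54.0 (-0.44 ± 0.293, FDR = 0.381).

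In tanycytes on Day 5, Spred1 ranged from 86.8 to 119.3 CPM after FGF1 and from 108.5 to 162 in vehicle, and Spry2 from 31.6 to 59.3 and from 35.4 to 67.9. Both were lower than in the vehicle mouse of the batch in 6 of 6 batches, with log2 differences of -0.30 ± 0.118 (edgeR, FDR = 0.142) and -0.38 ± 0.159 (FDR = 0.173). Cluster 0 held a median of 62.1% of the tanycytes in FGF1 mice and 80.7% in vehicle mice, and within it the log2 differences were -0.25 ± 0.119 and -0.36 ± 0.184. Dusp6 in the class was at 35.8 ± 16.7 against 30.8 ± 9.87 (0.02 ± 0.308, FDR = 0.992).

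Dusp6 in microglia, where its vehicle level was highest, ranged from 69.7 to 210.2 CPM after FGF1 with a median of 158 and from 169.6 to 287 in vehicle with a median of 202. The groups overlapped, FGF1 was lower in 5 of 6 batches, and the log2 difference of -0.64 ± 0.232 did not pass the threshold (edgeR, FDR = 0.217). Spry2 in ependymal cells was at 28.0 ± 18.1 against 51.2 ± 10.9 and lower in 6 of 6 batches (-0.52 ± 0.222, FDR = 0.275), with 1 FGF1 mouse at 0.

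OPC, where Spry1, Spred1, Spred2 and Spred3 had their highest vehicle levels, showed small differences for each of the 7 members tested there, from -0.15 for Spred2 to 0.05 for Spry2, with SEs of 0.119 to 0.254. Spry2 in OPC was at 134.7 ± 29.7 CPM after FGF1 and 129 ± 32.9 in vehicle, and the ranges overlapped widely.

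Of 37 pairs tested over 13 of the 16 clusters, none was called by edgeR or by DESeq2, where 1.75% of 67441 were, and 6 had an unadjusted p below 0.05, all lower after FGF1, where 13.4% of all pairs did. The lowest log2 difference was that of Dusp6 in cluster 8, the microglia, and the highest 0.50 ± 0.308 for Spred1 in cluster 11, an oligodendrocyte cluster (FDR = 0.413).

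Whether the Day 5 effect in astrocytes differed from that in tanycytes, ependymal cells, oligodendrocytes or OPC was tested in 24 pairs, of which 3 were called by edgeR, where 10.4% of 39588 were, and 7 had an unadjusted p below 0.05, where 24.1% did. Dusp6 had an effect 1.13 ± 0.304 higher in tanycytes than in astrocytes (FDR = 0.0131) and 1.13 ± 0.252 higher in OPC (FDR = 0.00142). Spred1 had an effect 0.53 ± 0.128 lower in tanycytes than in astrocytes (log2 difference of effects -0.53, FDR = 0.00219). All 3 compare with the astrocyte class, whose cluster shares differed between the groups as given above. Without vehicle replicate 20 the tanycyte difference of Dusp6 was 1.11 with FDR = 0.0519.

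The other lists had calls in both directions in whole cells. Over all genes 4.18% of pairs were called, 12.6% in astrocytes, and 17.7% had an unadjusted p below 0.05. Of the cascade genes 3 of 144 pairs were called and 17 had such a p, all 3 calls being higher in astrocytes: Mapk3, which encodes ERK1, Gab1 and Nras, with log2 differences of 0.53 ± 0.129, 0.50 ± 0.134 and 0.41 ± 0.132 (edgeR, FDR = 0.00614, 0.0124 and 0.0372). Of the other MAPK phosphatases 1 of 25 pairs was called, Dusp1 in astrocytes, at 20.9 ± 6.18 CPM after FGF1 against 78.0 ± 27.5 (-1.88 ± 0.243, FDR = 0.000134). Of the other ERK target genes 4 of 48 pairs were called higher and 3 lower, and 13 had an unadjusted p below 0.05. Ccnd1 was higher in OPC (0.54 ± 0.12, FDR = 0.00754), and Etv1, an ETS-family factor, was lower in tanycytes (-0.66 ± 0.163, FDR = 0.0177). Named after their values were seen, as the rest of these calls, Ccnd1 and Epha4 were higher in tanycytes, Egr1 was higher in OPC (1.09 ± 0.231, FDR = 0.0212) and lower in astrocytes (-1.29 ± 0.308, FDR = 0.0213), and Etv4 was lower in astrocytes. The astrocyte calls are of the whole class, whose cluster shares differed between the groups as given above. None of these genes was called within astrocyte cluster 1 or 4, and the part of the shares was not tested. In the deposited clusters 4 pairs of the target list were called, all higher, and none of the cascade genes or phosphatases, which had 12 and 5 unadjusted p below 0.05 among 187 and 25 pairs, where 1.75% of all pairs were called and 13.4% had such a p. On Day 5 none of the 3 lists had a call in nuclei by edgeR, with 12, 0 and 6 unadjusted p below 0.05 among 184, 10 and 25 pairs, where 8.6% of all pairs had such a p.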

How the data were processed

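Hypothalami were profiled with 10x 3′ v2 chemistry. The authors aligned reads and counted UMIs with Cell Ranger 1.2 on GRCm38, with introns included for nuclei, and deposited raw counts per gene and barcode for the barcodes that passed their limits on genes detected. They removed doublets (called with Scrublet) and neurons from the whole-cell table before deposit; no doublets were called here. Per the file headers, the authors' metadata give each barcode's sample, batch, nuclear cell type or whole-cell cluster, and the percent of its UMIs that were mitochondrial or ribosomal, used in an alternative only. Deposited log-scale normalised tables were not used. Of 24965 nuclei, 660 marked as filtered in the annotation were left out.

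UMI counts of all nuclei or cells of a type were added up within each mouse, for types with at least 10 nuclei or cells in 2 or more mice of each group. Whole-cell clusters were named where 4 or more markers of a class were in at least 10% of cells and at least 2 times as high as in other cells, and clusters of 1 name were merged. A cluster stayed unnamed where a second class had 6 or more such markers, in a share of cells at least 50% of that class's highest. Each type was fitted alone in edgeR 4.0.16 (R 4.3.3; filterByExpr, TMM, robust quasi-likelihood test, no covariate; mouse as a block between types), with Benjamini-Hochberg adjustment over all genes of the type and a threshold of 0.05. DESeq2 1.42.0, RLE scaling, no filter, at least 20 cells, thinning to 1300 UMIs, limits of 5% (nuclei) and 20% (cells) on mitochondrial or ribosomal UMIs, batch and replicate blocks and leaving out each mouse were alternatives. The scripts were tested on simulated data. The SDs are over the observed values of the mice and do not separate counting error from differences between mice.

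The 9 members were named in every comparison, with up to 5 genes of the 3 other lists by smallest FDR and, for each member, the 2 genes of highest correlation. The members, lists and tests were chosen with earlier results of these data known. Sequences and starts are from RefSeq (GRCm38.p6) and gene positions from GENCODE vM21. The title of 1 vehicle library has its group letters reversed, and its group was taken from its treatment label.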

Additional observations from a re-analysis of the deposited data

Results flagged for a closer look

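Among 66 groups of 4 to 6 mice checked in whole cells on Day 5, 4 had a mouse far from the others, where chance gives about 1 in 20. Spry1 in endothelial cells was at 71.9 CPM in FGF1 mouse 7, on 24 UMIs, and at 33.8 in the next mouse. Il17rd in endothelial cells was at 13.8 CPM in vehicle mouse 35, on 7 UMIs, with the next at 20.4. Spry1 in oligodendrocytes was at 23.0 CPM in vehicle mouse 27, on 8 UMIs, with the next at 12.5. Spred2 in tanycytes was at 24.4 CPM in vehicle mouse 20, on 52 UMIs, with the next at 20.0. No member was called in any of these 4 pairs of gene and class.

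The effects of FGF1 on Day 5 differed between classes of the same mice, by edgeR's test of the difference itself, for Dusp6 in tanycytes against astrocytes (1.13 on the log2 scale), for Dusp6 in OPC against astrocytes (1.13) and for Spred1 in tanycytes against astrocytes (-0.53). These were 3 of 24 pairs tested, a share close to the 10.4% called over all genes. The astrocyte class held a median of 79.4% cluster 4 cells in FGF1 mice and 6.60% in vehicle mice. Whether the differences between classes hold within 1 astrocyte cluster was not tested.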

How the results depend on the processing

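On Day 1 the 3 calls became 10 with no low-count filter (143 pairs tested), 6 with DESeq2 (those 3, Spry2 in unmapped neurons, and Spred2 and Spred3 in n29.Nr5a1/Adcyap1 neurons), 3 with RLE scaling or at least 20 nuclei per mouse, 4 without nuclei above 5% mitochondrial or ribosomal UMIs, 1 with batch as a block (chosen after seeing the data), and 0 after thinning to 1300 UMIs (9 pairs still tested) or when only nuclei with 3 or more UMIs of their own markers were used in 3 glial types (oligodendrocytes, OPC/COP and microglia; 8 pairs tested, none of them among the 3 calls). Leaving out 1 mouse gave 0 to 7: 0 without vehicle replicate 1 or 2, and 7 without FGF1 replicate 1. The share of all genes called under each of these settings is not given, so these counts describe the members only. The day difference had 1 call with no filter (Spry2 in OPC/COP) and 0 to 1 when 1 mouse was left out, 1 only without Day 5 vehicle replicate 28. The cause was not tested beyond the smaller number of pairs. No member was called on Day 5 in nuclei or in clusters under any alternative run, and Dusp6 in astrocytes was called in whole cells under each; only within its clusters was it not (log2 -0.59, FDR = 0.341 in cluster 1 and -0.56, FDR = 0.759 in cluster 4, with no filter). The Day 5 class differences numbered 2 to 4 when 1 mouse was left out, and 4 with RLE scaling. Over 50 named values, 695 of 731 settings kept direction and call, 17 lost the call, 19 gained it and none reversed.

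Day 1 mice share replicate numbers between groups, but the number does not pair them: their deviations from the group means correlated at -0.10, -0.41 and 0.40 in astrocytes. With the replicate number as a block there were 2 calls, Spry2 (FDR = 0.0144) and Spred2 (FDR = 0.0310) in tanycytes, while Spry2 in astrocytes had FDR = 0.0768. On Day 5 the groups share no replicate number, but each batch held 1 FGF1 and 1 vehicle mouse: with batch as a block no member was called in nuclei or clusters, and 1 was in whole cells, Dusp6 in astrocytes (log2 -1.30, FDR = 1.97e-05). Depth limits Spry1, Spry4, Dusp4 and Il17rd, which had 37 to 515 UMIs over all nuclei.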
